A study of Mus musculus with 24 samples.

Results

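The Hox cluster genes were examined as 38 member genes in 4 clusters, Hoxa on chromosome 6, Hoxb on chromosome 11, Hoxc on chromosome 15 and Hoxd on chromosome 2 (mouse build mm10). A member region was any listed region that overlapped the RefSeq model of one of these genes or lay within 2 kb of it. There were 65 such regions among the 53386 regions listed for the series, with 24 in cluster A, 16 in cluster B, 12 in cluster C and 13 in cluster D. Of the 38 genes, 36 had at least 1 region, and Hoxa2 and Hoxc13 had none. The regions were 1400 to 7600 bases wide, with a median of 2800 bases against 2600 bases over all regions. 62 of the 65 regions touched a gene body, and 27 lay in the windows of more than 1 member gene, so neighbouring genes often shared a region.

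Chromatin immunoprecipitation and sequencing was used to read H3K9me2, histone H3 dimethylated at lysine 9, in hearts of 6 C57BL6 mice aged 12 months, 3 female and 3 male. All 6 mice went through ischemic preconditioning, in which the left coronary artery was closed for 5 min and reopened for 5 min over 4 cycles, with 30 min of final reperfusion. A biopsy of every heart came from the area at risk, the myocardium supplied by the closed artery, and another from the remote myocardium outside it. Each biopsy gave an H3K9me2 library and an input library of the same digested chromatin without immunoprecipitation, so the 4 groups were H3K9me2 of the area at risk, input of the area at risk, H3K9me2 of the remote myocardium and input of the remote myocardium, with 6 libraries each. No sham-operated heart was analysed here, so both biopsies came from preconditioned animals and remote tissue is not untreated tissue.

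Hox genes encode homeodomain transcription factors that give cells their position along the body axis. Within a cluster they lie in the order in which they are used: genes of low paralogue number, at the 3′ end, act early and near the head, and genes of high paralogue number, at the 5′ end, act late and toward the tail, the limb tips and the genital tract. Anterior Hox genes such as Hoxb1 and Hoxa3 are used in the embryo by progenitors of the heart under retinoic acid. Hox clusters are a textbook target of Polycomb proteins, which keep unused members silent through methylation of H3 at lysine 27, and of trithorax proteins, which keep used members active. H3K9me2 is another mark of silent chromatin, laid down in euchromatin mainly by the methyltransferases G9a and GLP.

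Promoters of 6 member genes are shown because they lie in regions on which the results below turn. Those of Hoxa13, Hoxd13 and Hoxd9 lie in regions that tested lower in H3K9me2 than in input in both biopsies. That of Hoxd8 lies in a region that did so in the remote myocardium only, as do those of Hoxa11 and Hoxd12, which are not printed. Those of Hoxb1 and Hoxd1, at the 3′ ends of clusters B and D, lie in regions that passed no test. Each sequence is the 250 bases before the RefSeq gene start in build GRCm38.p6, written 5′ to 3′ on the gene's strand, with every CG dinucleotide, the site of DNA methylation in mammals, in capitals. The Hoxa13 stretch (chr6:52260881-52261130, minus strand) holds 35 CG, the Hoxd13 stretch (chr2:74667975-74668224, plus strand) 31, the Hoxd9 stretch (chr2:74697513-74697762, plus strand) 13 and the Hoxd8 stretch (chr2:74704365-74704614, plus strand) 6. The Hoxb1 stretch (chr11:96365508-96365757, plus strand) holds 7 CG, and the Hoxd1 stretch (chr2:74762730-74762979, plus strand) holds 24, with 180 of its 250 bases inside the region.
Hoxa13: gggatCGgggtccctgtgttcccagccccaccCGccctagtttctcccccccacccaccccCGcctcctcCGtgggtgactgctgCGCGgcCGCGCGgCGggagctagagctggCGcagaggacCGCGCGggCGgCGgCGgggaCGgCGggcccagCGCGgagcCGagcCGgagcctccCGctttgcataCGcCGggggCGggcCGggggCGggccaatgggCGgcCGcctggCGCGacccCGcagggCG
Hoxd13: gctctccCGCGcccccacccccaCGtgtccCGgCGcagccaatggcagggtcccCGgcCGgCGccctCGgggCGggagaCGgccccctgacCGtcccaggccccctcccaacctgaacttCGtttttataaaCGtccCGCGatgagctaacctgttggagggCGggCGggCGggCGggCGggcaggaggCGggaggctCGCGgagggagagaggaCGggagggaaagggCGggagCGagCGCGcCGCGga
Hoxd9: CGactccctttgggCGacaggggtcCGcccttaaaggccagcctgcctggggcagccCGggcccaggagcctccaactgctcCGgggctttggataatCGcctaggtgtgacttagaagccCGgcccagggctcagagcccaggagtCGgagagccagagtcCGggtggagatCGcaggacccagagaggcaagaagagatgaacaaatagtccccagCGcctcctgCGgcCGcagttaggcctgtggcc
Hoxd8: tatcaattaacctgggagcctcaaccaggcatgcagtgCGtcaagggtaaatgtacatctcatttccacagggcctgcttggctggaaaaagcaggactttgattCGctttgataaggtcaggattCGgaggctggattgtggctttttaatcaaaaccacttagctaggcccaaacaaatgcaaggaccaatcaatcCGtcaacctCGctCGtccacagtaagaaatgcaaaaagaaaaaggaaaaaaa
Hoxb1: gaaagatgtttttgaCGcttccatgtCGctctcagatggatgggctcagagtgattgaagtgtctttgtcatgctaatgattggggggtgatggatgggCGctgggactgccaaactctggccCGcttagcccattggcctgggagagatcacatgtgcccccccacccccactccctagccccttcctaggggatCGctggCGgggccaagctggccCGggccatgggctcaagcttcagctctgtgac
Hoxd1: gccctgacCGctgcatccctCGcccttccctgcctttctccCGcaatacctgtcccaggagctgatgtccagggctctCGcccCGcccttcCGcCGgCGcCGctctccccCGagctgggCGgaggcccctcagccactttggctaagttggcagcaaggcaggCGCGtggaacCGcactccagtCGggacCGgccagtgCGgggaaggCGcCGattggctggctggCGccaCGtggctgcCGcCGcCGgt

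In the RefSeq table of promoter windows, which run from 250 bases before to 50 bases after a gene start, 24 windows belonged to 22 member genes. The motif searched was CG, which reads the same on both strands. Member windows held a median of 14.5 CG, with a range of 4 to 45, against a median of 7 over all 32851 windows. Every member window held at least 1 CG, as did 94.6% of all windows. CG number did not separate the regions that passed a test from those that did not: the 6 windows inside called regions held 6 to 45 CG, and the 5 windows inside tested regions without a call held 4 to 29.

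A pair of microRNA genes that sit inside the Hox clusters lay in tested regions, and their mature sequences are shown with the seed, bases 2 to 8, in capitals. miR-196b-5p (chr6:52230129-52230150, minus strand) lay in the called region between Hoxa9 and Hoxa10, and miR-615-3p (chr15:103014969-103014990, plus strand) lay in the region of Hoxc5, which passed no test. miR-196a-5p, which is encoded at 2 places in clusters B and C that no member region covers, has the same seed as miR-196b-5p. miR-196 is known to target Hoxb8 messenger RNA.
miR-196b-5p: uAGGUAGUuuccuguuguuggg
miR-196a-5p: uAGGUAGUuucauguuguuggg
miR-615-3p: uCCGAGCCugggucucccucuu

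Depth set how much these regions could show. Reads counted in the listed regions came to 416683 to 1196368 per H3K9me2 library and 1286383 to 2478668 per input library in the area at risk, and to 443261 to 981763 per H3K9me2 library and 1405503 to 1770520 per input library in the remote myocardium. The 65 member regions held a median of 723 reads per H3K9me2 library against 1915 per input library in the area at risk, and 725.5 against 2009 in the remote myocardium. In the called regions, single H3K9me2 libraries held 1 to 66 reads per region. Levels are given as CPM, the count of a region per unit of library total after scaling by trimmed mean of M values factors, and a fold is the fitted log2 of H3K9me2 over input, or of area at risk over remote myocardium. A region was called when its false discovery rate (FDR), the Benjamini-Hochberg adjusted p of edgeR's quasi-likelihood test over all tested regions, was under 0.05.

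Against input, 50 of the 65 member regions could be tested in each biopsy. Of the other 15, 9 were wholly covered by other listed regions and held no read in any library, and 6 held 27 to 216 reads over the 24 libraries, against 248 to 1516 in the tested regions. They lay mostly around Hoxa5, Hoxa7, Hoxa10 and Hoxa11, so that part of cluster A was measured thinly. Every one of the 36 genes with a region kept at least 1 tested region in its window.

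H3K9me2 was lower than input in 9 of 50 tested member regions in the area at risk (18%), where 12.3% of all 40928 tested regions were lower. No member region was higher, where 11.3% of all tested regions were. In the remote myocardium 14 of 50 member regions were lower (28%), where 20% of all 40767 tested regions were, and again none was higher, where 20.5% of all tested regions were. DESeq2 called 5 member regions lower in the area at risk and 11 in remote myocardium, and 0 higher in either biopsy. At an unadjusted p under 0.05, edgeR put 15 of 50 member regions apart from input in the area at risk (30%, against 36.5% of all tested regions), 0 of them higher, and 16 of 50 in the remote myocardium (32%, against 48.2%), 2 of them higher. The median log2 fold over the 50 regions was -0.18 in the area at risk and -0.19 in remote myocardium, against 0.01 in each over all tested regions, and 35 of 50 lay below 0 in each biopsy. The shares of lower calls were thus above the background by under 10 percentage points, and the absence of higher calls was the larger departure from it.

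Part of the background differs by the kind of region. Among all tested regions that hold a promoter window, 33.9% were lower in the area at risk and 45.7% in remote myocardium, against 8.69% and 15.7% of those without one. Of the 17 tested member regions with a promoter window, 4 were lower in the area at risk (23.5%) and 6 in remote myocardium (35.3%). Of the 33 without one, 5 were lower in the area at risk (15.2%) and 8 in remote myocardium (24.2%). None of the 17 or 33 was higher in either biopsy, where 4.5% and 7.83% of all promoter regions and 12.5% and 22.6% of the others were. Member regions with a promoter window were thus called lower less often than other promoter regions, and those without one more often than other regions without; these differences between shares were not tested.

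The calls lay mostly outside the regions assigned to paralogues 1 to 4, here called the 3′ part. Each region was assigned to the shortest member gene it overlapped, or else to the nearest. The parts thus follow gene labels and not strict position. Of the 23 regions of the 3′ part, 16 belonged to paralogue 3. Untested Hoxa3 regions beside Hoxa6 and Hoxa7 enter the sums of that part. Among the 19 tested regions of paralogues 1 to 4, none was lower in the area at risk and 1, that of Hoxa4, was lower in the remote myocardium. DESeq2 called none of them in either biopsy, and at an unadjusted p under 0.05 edgeR put 1 and 2 of the 19 apart from input. Of the 10 tested regions of paralogues 5 to 8, 4 were lower in each biopsy (40%). Of the 21 of paralogues 9 to 13, 5 were lower in the area at risk (23.8%) and 9 in remote myocardium (42.9%). Over all tested regions these shares were 12.3% and 20%. Median log2 folds in the area at risk were 0.05 for paralogues 1 to 4, -0.45 for paralogues 5 to 8 and -0.26 for paralogues 9 to 13. The same medians in the remote myocardium were -0.11, -0.29 and -0.19.

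**Figure D1:**
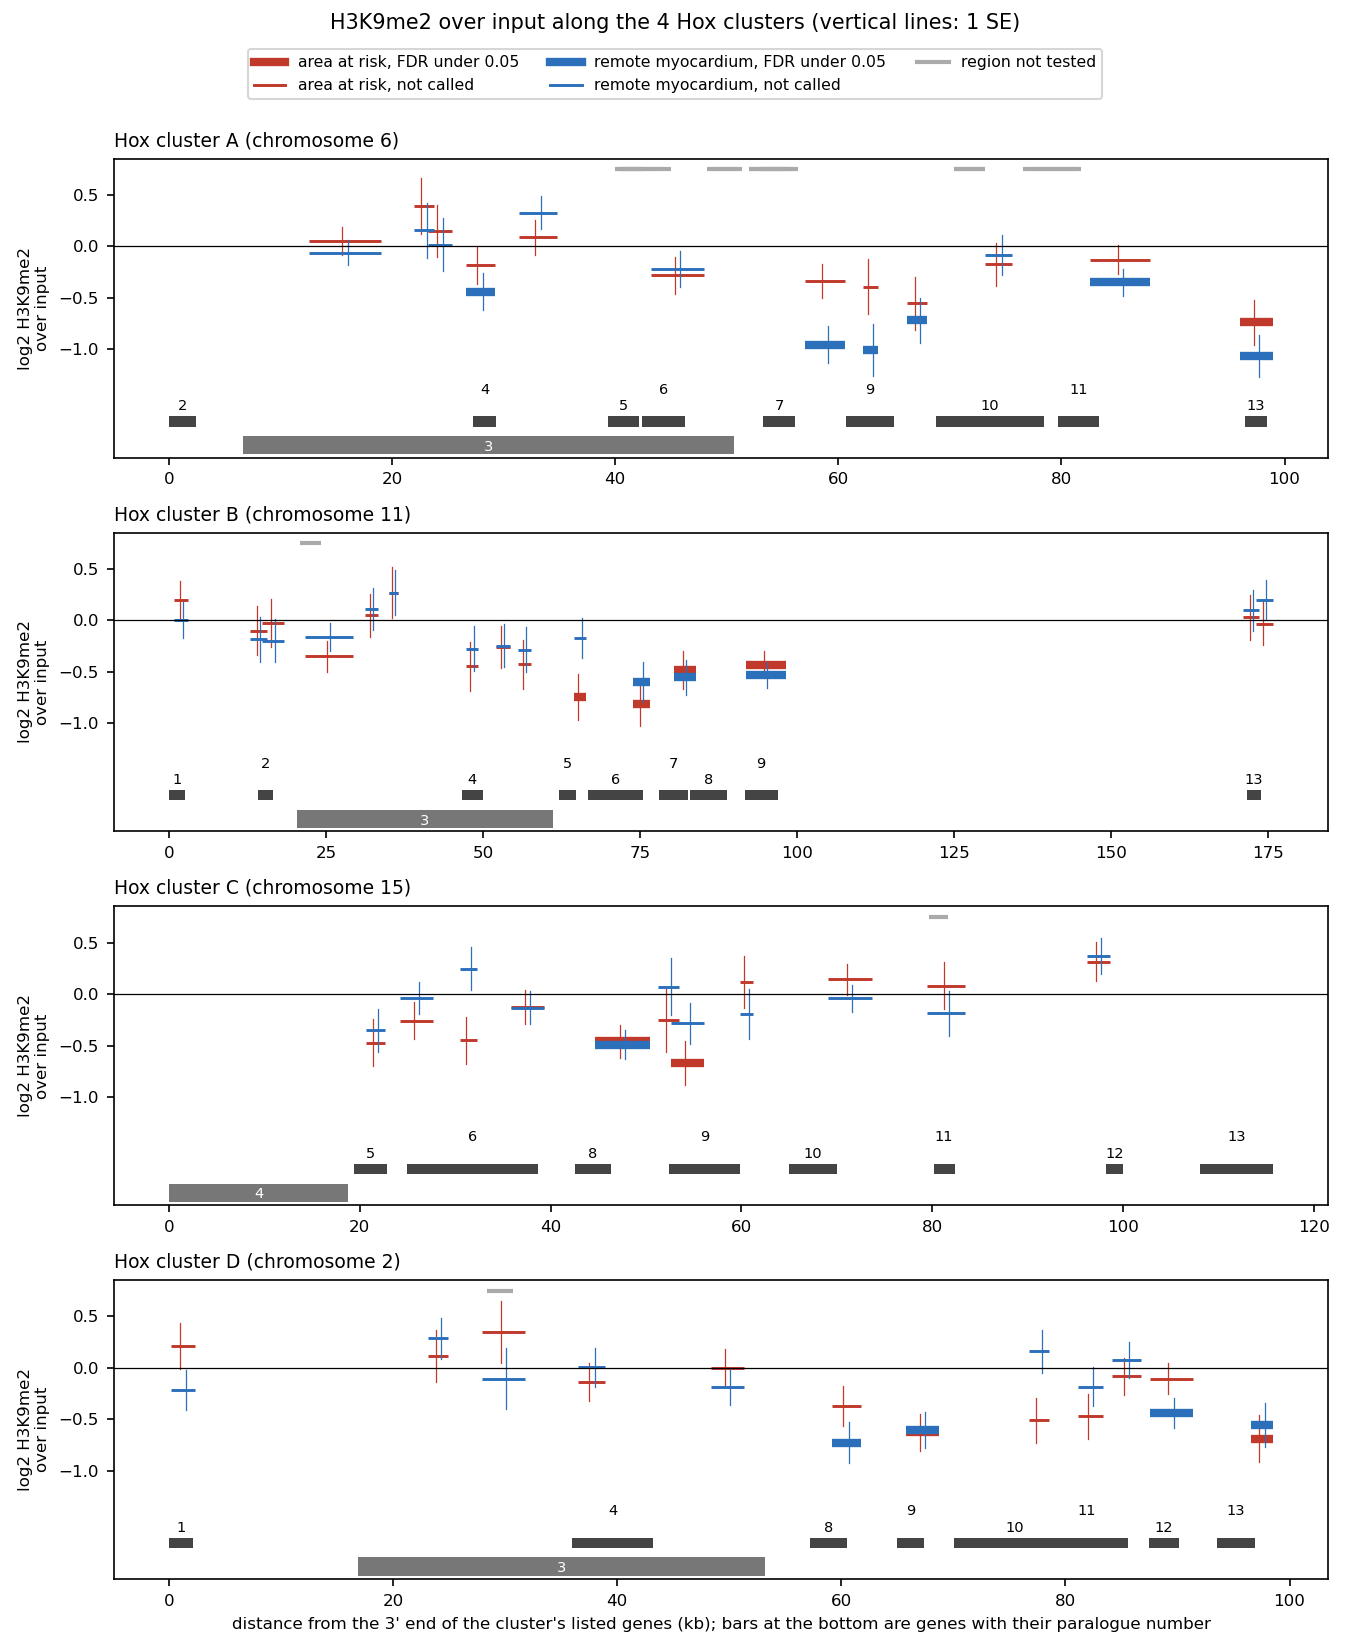
Log2 fold of H3K9me2 over input (vertical axis, with 1 SE) of each tested member region against the distance in kb from the 3′ end of the listed genes of its cluster (horizontal axis), in the area at risk (red) and the remote myocardium (blue). Thick bars are called regions, grey bars at the top are untested regions, and numbered bars at the bottom are genes by paralogue. All 9 thick red bars and 13 of the 14 thick blue bars are of regions assigned to paralogues 5 to 13, and lie below 0.

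Reads summed over all regions of a part gave the same picture mouse by mouse. The log2 ratio of H3K9me2 to input of the same biopsy averaged -0.45 ± 0.23 over paralogues 5 to 8 in the area at risk and -0.30 ± 0.13 in remote myocardium (SD, n = 6 mice). Over paralogues 9 to 13 it averaged -0.26 ± 0.18 in the area at risk and -0.31 ± 0.08 in remote myocardium. Over paralogues 1 to 4 it averaged -0.03 ± 0.11 in the area at risk and -0.08 ± 0.08 in remote myocardium. Pooled over the clusters, paralogues 9 to 13 had a lower ratio than paralogues 1 to 4 in every mouse and both biopsies. The difference was -0.23 ± 0.14 on the log2 scale in the area at risk and -0.23 ± 0.12 in remote myocardium. Paralogues 5 to 8 were also below paralogues 1 to 4 in all 6 mice in both biopsies, with differences of -0.42 ± 0.15 and -0.22 ± 0.10. Between paralogues 9 to 13 and paralogues 5 to 8 the order changed between mice. Within single clusters, paralogues 9 to 13 were below paralogues 1 to 4 in all 6 mice in both biopsies only in cluster A. In cluster B this held in 4 of 6 mice in each biopsy. In cluster D it held in all 6 mice in the area at risk and 4 of 6 in remote myocardium. Cluster C had no region assigned to paralogues 1 to 4, so it enters the other sums only. These ratios carry no test, since they are sums over chosen genes.

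By single paralogue group, group 9 was below input in every mouse. Its ratio averaged -0.42 ± 0.22 in the area at risk and -0.56 ± 0.07 in remote myocardium, with all 6 mice below 0 in both. Group 8, read from 2 regions, those of Hoxc8 and Hoxd8, averaged -0.52 ± 0.33 and -0.55 ± 0.21. All 6 mice were again below 0 in both biopsies. The region that Hoxb8 shares with Hoxb7 counted in group 7. Group 3 averaged -0.02 ± 0.08 in the area at risk and -0.01 ± 0.07 in remote myocardium, with mice on either side of 0. Group 4, also of the 3′ side and read from 3 regions, averaged -0.25 ± 0.36 and -0.31 ± 0.43. It had 4 of 6 mice below 0 in each biopsy and means close to those of paralogues 9 to 13. Group 12, of the 5′ side and read from 2 regions, averaged 0.07 ± 0.18 in the area at risk, with 3 of 6 mice below 0. In the remote myocardium it averaged -0.11 ± 0.21, with 5 of 6 below 0. Single groups thus did not all follow the order of the parts. Group 1, read from the single regions of Hoxb1 and Hoxd1, spread over -0.81 to 0.76 in the area at risk and -0.94 to 0.11 in the remote myocardium.

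Taken by cluster, the ratio was below 0 in nearly all mice and the clusters could not be ranked. The average in the area at risk was -0.17 ± 0.14 in cluster A, -0.28 ± 0.17 in cluster B, -0.18 ± 0.27 in cluster C and -0.23 ± 0.19 in cluster D, with 6, 6, 5 and 5 of 6 mice below 0. In the remote myocardium it averaged -0.34 ± 0.12 in cluster A, -0.21 ± 0.16 in cluster B, -0.12 ± 0.16 in cluster C and -0.24 ± 0.14 in cluster D, with 6, 5, 4 and 6 of 6 mice below 0. Differences between clusters in the same mouse were within or near their SD, the nearest to an exception being cluster A under cluster D in all 6 remote biopsies, with a difference of -0.10 ± 0.07. Over all 4 clusters together the ratio averaged -0.22 ± 0.15 in the area at risk and -0.23 ± 0.05 in remote myocardium, below 0 in all 6 mice in each. The zero of this ratio is set by the scaling over tested regions, so a value below 0 is a level relative to them. It does not measure a loss of the mark. In bulk tissue, a low level in a few cell types and a low level in all cells cannot be told apart.

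**Figure D2:**
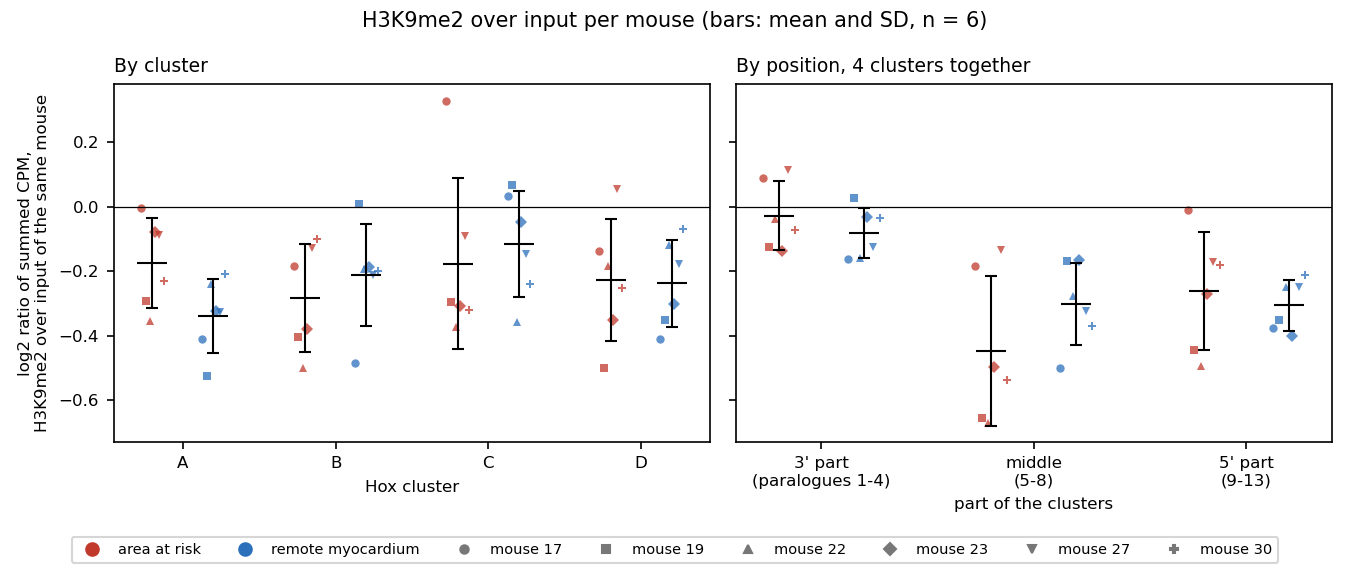
Log2 ratio of summed CPM, H3K9me2 over the input of the same mouse (vertical axis), by cluster (left panel) and by part of the clusters (right panel), in the area at risk (red) and the remote myocardium (blue). Each symbol is a mouse and bars give the mean and SD (n = 6). Symbols of paralogues 1 to 4 straddle 0, and all symbols of paralogues 5 to 8 and 9 to 13 lie below it.

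Per kilobase, H3K9me2 at the Hox clusters had a lower median than over all listed regions. Over the 38 member regions that no other region overlaps, H3K9me2 had a median of 7.97 CPM per kb in the area at risk and 8.54 in remote myocardium, against 9.21 and 9.24 over the 32718 such regions of the whole list. Input over the same member regions had a median of 9.54 CPM per kb in the area at risk and 9.5 in remote myocardium, against 9.08 and 9.03 over the whole list. Regions of the list that hold a promoter window had 7.24 and 7.12 CPM per kb of H3K9me2. Member regions thus lay between promoter regions and the list as a whole.

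Cluster A had the largest contrast between its ends. H3K9me2 was lower at Hoxa13, in the interval between Hoxa7 and Hoxa9, inside Hoxa9, between Hoxa9 and Hoxa10, at Hoxa11 and at Hoxa4 in the remote myocardium, 6 of 12 tested regions, and at Hoxa13 alone in the area at risk. These shares were 50% in the remote myocardium and 8.33% in the area at risk, against 20% and 12.3% of all tested regions. Summed over its 5′ part the ratio averaged -0.41 ± 0.34 in the area at risk and -0.61 ± 0.14 in remote myocardium, and over its 3′ part 0.07 ± 0.18 and -0.07 ± 0.19 (SD, n = 6). The 5′ part was below the 3′ part in all 6 mice in both biopsies.

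Hoxa13 patterns the hand, foot and genital tract, and the region (chr6:52258400-52261399) contains the whole gene and its promoter. Within the area at risk its lowest, median and highest levels were 2.45, 14.5 and 29.1 CPM in H3K9me2, against 19.5, 25.6 and 30.7 CPM in input. The groups overlapped through a single mouse, number 17, whose H3K9me2 library was the highest and whose input was the lowest. The fold was -0.74 (SE 0.22, FDR 0.0103), lower in 5 of 6 mice, and without mouse 30 it was -0.62 with an FDR of 0.0685. In the remote myocardium the levels were 7.41, 11.9 and 17.4 CPM in H3K9me2 against 21.3, 28.0 and 29.1 CPM in input. These groups did not overlap, and the fold was -1.06 (SE 0.21, FDR 7.71e-06), lower in all 6 mice.

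Hoxa9, a regulator of blood stem cells that is active in many leukaemias, had its calls in the remote myocardium. The interval between Hoxa7 and Hoxa9 (chr6:52219400-52222999) ends 98 bases from the Hoxa9 model and overlaps neither gene. Its remote H3K9me2 libraries had 11.5, 17.9 and 22.6 CPM, against 26.5, 36.4 and 38.6 CPM in remote input. They did not overlap, and the fold was -0.95 (SE 0.18, FDR 3.30e-06), lower in all 6 mice. The same region in the area at risk had 16.8, 27.1 and 30.2 CPM in H3K9me2 against 27.7, 33.6 and 39.1 CPM in input, with overlap and a fold of -0.34 (FDR 0.129). Inside the Hoxa9 gene (chr6:52224600-52225999) remote H3K9me2 had 6.16, 9.86 and 11.9 CPM against 12.0, 18.2 and 22.5 CPM in remote input, again without overlap, with a fold of -1.01 (SE 0.25, FDR 0.000499). Area at risk samples had 1.87, 10.8 and 18.8 CPM in H3K9me2 against 11, 14 and 18.4 CPM in input, and the fold was -0.39 (FDR 0.295). The Hoxa9 gene region rested on 4 to 8 reads per remote H3K9me2 library.

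The interval between Hoxa9 and Hoxa10 (chr6:52228600-52230399), which holds miR-196b, had 9.20, 12.7 and 15.8 CPM in remote H3K9me2 and 10.8, 23.2 and 25.5 CPM in remote input. The overlap came from the input of mouse 27, and the fold was -0.72 (SE 0.22, FDR 0.00487). The fold in the area at risk was -0.55 (FDR 0.106), and without mouse 23 it was -0.81 with an FDR of 0.0401. At Hoxa11 (chr6:52245000-52250399), which shapes the forearm, kidney and uterus, remote H3K9me2 had 31.6, 43.0 and 50.8 CPM against 47.0, 49.8 and 65.5 CPM in remote input, with overlap. Its remote fold was -0.35 (FDR 0.0247), and without mouse 17, 19 or 23 it was -0.31 to -0.32 with an FDR of 0.0661 to 0.0824; DESeq2 gave an FDR of 0.0839. At Hoxa4 (chr6:52189000-52191599), a gene of the neck vertebrae, remote H3K9me2 had 9.20, 18.5 and 28.7 CPM against 21.0, 26.3 and 35.2 CPM in remote input. This overlapping and only 3′ call had a fold of -0.44 (FDR 0.0446), and it was lost without any single one of mice 17, 19, 22, 23 and 27, with an FDR of 0.0593 to 0.169, without the filter on low counts (FDR 0.0519) and with DESeq2 (FDR 0.119). The other 6 tested regions of cluster A, 4 of Hoxa3 and 1 each of Hoxa6 and Hoxa10, had folds of -0.28 to 0.39 and passed no test.

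In cluster B the lower regions ran from Hoxb5 to Hoxb9. 4 of 15 tested regions were lower in the area at risk (26.7%) and 3 in remote myocardium (20%), against 12.3% and 20% of all tested regions. The middle of the cluster had a ratio of -0.68 ± 0.27 in the area at risk and -0.47 ± 0.39 in remote myocardium, with all 6 mice below 0 in both (SD, n = 6). The 9 tested regions of Hoxb1 to Hoxb4 and the 2 of Hoxb13, which lies apart from its neighbours, passed no test in either biopsy.

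At the start of Hoxb6 (chr11:96291600-96294399), a gene of the trunk and limb bud, H3K9me2 of the area at risk had 4.89, 15.4 and 19.6 CPM, against 20.7, 28.1 and 33.8 CPM in input of the area at risk. The groups did not overlap, and the fold was -0.82 (SE 0.21, FDR 0.00256), the lowest FDR of any member region in this biopsy, lower in all 6 mice. In the remote myocardium the levels were 10.4, 16.8 and 24.1 CPM in H3K9me2 against 23.7, 25.3 and 32.0 CPM in input. They overlapped slightly, and the fold was -0.60 (SE 0.19, FDR 0.00681); without mouse 17 it was -0.44 with an FDR of 0.0803.

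The region between Hoxb6 and Hoxb5 (chr11:96301800-96303799), which reaches the first 288 bases of Hoxb5, a gene that places the shoulder girdle, differed in its call between the biopsies. H3K9me2 of the area at risk had 8.56, 12.7 and 18.7 CPM against 18, 20.9 and 27.9 CPM in input, with overlap through 1 H3K9me2 library, and the fold was -0.75 (SE 0.22, FDR 0.0106), lower in all 6 mice. In the remote myocardium H3K9me2 had 12.6, 20.9 and 25.6 CPM against 17.4, 21.0 and 27.1 CPM in input, with a fold of -0.17 (FDR 0.507). The difference between the 2 folds was -0.58 (95% interval -1.17 to 0.01, adjusted p = 1.00 in edgeR), so it was not shown to differ between biopsies.

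Hoxb9, which patterns the ribs, was called without overlap in both biopsies. Its region (chr11:96270000-96276399), which covers nearly the whole gene, had 31.8, 43.6 and 47.9 CPM in H3K9me2 of the area at risk against 53.0, 55.7 and 65.1 CPM in its input, and 29.6, 43.5 and 52.1 CPM in remote H3K9me2 against 54.8, 59.8 and 67.8 CPM in remote input. Every H3K9me2 library lay below every input library of its biopsy. The folds were -0.43 (SE 0.13, FDR 0.0114) and -0.53 (SE 0.13, FDR 0.000318), lower in all 6 mice in both. The region that joins Hoxb8 and Hoxb7 (chr11:96284400-96287799), genes used in myeloid progenitors and in the ureteric bud, had 17.7, 21.6 and 28.7 CPM in H3K9me2 of the area at risk against 25.3, 28.8 and 39.6 CPM in its input, and 12.7, 27.0 and 29.9 CPM in remote H3K9me2 against 23.7, 33.1 and 48.1 CPM in remote input. These groups overlapped in both biopsies. Its folds were -0.48 (FDR 0.0426) and -0.55 (FDR 0.00555). The area at risk call was lost without mouse 17, 19, 22, 23 or 27, with a fold of -0.28 and an FDR of 0.308 without mouse 23, and with DESeq2 (FDR 0.120), and the remote call was lost without mouse 17, with a fold of -0.33 and an FDR of 0.152.

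At the 3′ end of the cluster, the Hoxb1 region (chr11:96365200-96367399), whose gene marks the hindbrain and heart progenitors, had 21.2, 25.1 and 27.8 CPM in H3K9me2 of the area at risk against 15.6, 20.9 and 29.9 CPM in its input. In the remote myocardium it had 6.90, 24.7 and 32.6 CPM in H3K9me2 against 16.7, 24 and 29.5 CPM in input. The groups overlapped widely, and the folds were 0.20 (FDR 0.462) and 0.00 (FDR 0.997).

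**Figure D3:**
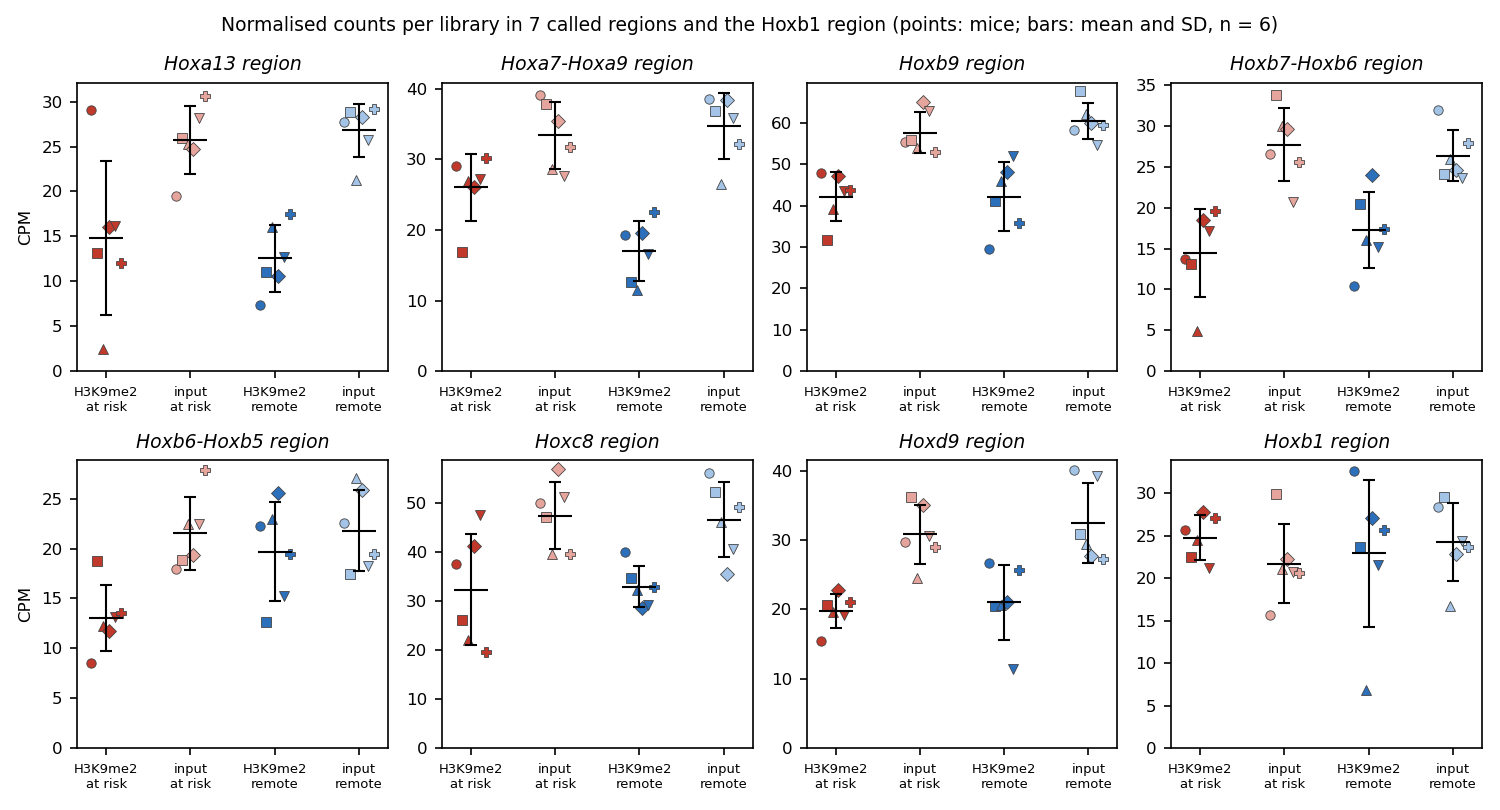
Normalised counts in CPM (vertical axis, from 0) of 8 member regions in each of the 24 libraries, in the order H3K9me2 of the area at risk, input of the area at risk, H3K9me2 of the remote myocardium and input of the remote myocardium. Points are mice and bars give the mean and SD (n = 6). Of the 8 regions, those of Hoxb9 and Hoxd9 have H3K9me2 below input without overlap in both biopsies, and that of Hoxb1 overlaps its input in both.

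In cluster C 2 of 11 tested regions were lower in the area at risk (18.2%), those of Hoxc8 and Hoxc9. In the remote myocardium 1 was (9.09%), that of Hoxc8. Of all tested regions 12.3% and 20% were lower, so the remote share was under the background. Unlike in clusters A and D, its 5′ part stayed near input, with a ratio of 0.03 ± 0.29 in the area at risk and -0.03 ± 0.16 in remote myocardium, while its middle had -0.40 ± 0.32 and -0.19 ± 0.19 (SD, n = 6).

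Hoxc8 patterns the thoracic vertebrae, and its region (chr15:102986400-102992199) covers the gene's start and the sequence before it. H3K9me2 had 19.6, 31.9 and 47.5 CPM in the area at risk against 39.5, 48.6 and 56.9 CPM in its input, and 28.6, 32.5 and 40.0 CPM in the remote myocardium against 35.5, 47.6 and 56.1 CPM in its input. The groups overlapped in both biopsies, but H3K9me2 was below the input of the same biopsy in all 6 mice in both. The folds were -0.46 (SE 0.16, FDR 0.0261) in the area at risk and -0.49 (SE 0.14, FDR 0.00307) in the remote myocardium. The call in the area at risk was lost without mouse 19 or 30, each with an FDR of 0.0791, and with DESeq2 (FDR 0.0700). Inside Hoxc9 (chr15:102980800-102984199), a regulator of thoracic motor neurons, H3K9me2 of the area at risk had 7.48, 16.3 and 19.2 CPM against 17.8, 24.6 and 26.6 CPM in its input, with overlap and a fold of -0.67 (FDR 0.0179). Without mouse 19 or 23 the fold was -0.56 or -0.53, with an FDR of 0.0802 or 0.0951, and DESeq2 gave an FDR of 0.0501. Its remote fold was -0.28 (FDR 0.258).

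Hoxc12, the most 5′ gene of the cluster with a region (chr15:102938200-102940599), leaned the other way without a call. H3K9me2 had 20.2, 29.1 and 41.2 CPM in the area at risk against 13.3, 23.4 and 29.1 CPM in its input, and 17.8, 28.2 and 39.5 CPM in the remote myocardium against 19.6, 22.0 and 23.1 CPM in its input. The groups overlapped. The folds were 0.32 (FDR 0.233) and 0.37 (FDR 0.0802), and without mouse 27 the remote fold was 0.46 with an FDR of 0.0440. A region inside the Hoxa3 model (chr6:52193800-52197199) had a remote fold of 0.33 (FDR 0.0907), and without mouse 22 it was 0.41 with an FDR of 0.0482. Both are named because they are the only member regions that passed the threshold upward in any fit, and were chosen after their values were seen.

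In cluster D the lower regions were those of Hoxd13 and Hoxd9 in both biopsies and those of Hoxd12 and Hoxd8 in the remote myocardium. These made 2 and 4 of 12 tested regions (16.7% and 33.3%), against 12.3% and 20% of all tested regions. The 5′ part had a ratio of -0.39 ± 0.16 in the area at risk and -0.30 ± 0.21 in remote myocardium, and the 3′ part 0.04 ± 0.29 and -0.06 ± 0.10 (SD, n = 6). All 5 tested regions of Hoxd1, Hoxd3 and Hoxd4 were uncalled, with folds of -0.21 to 0.35.

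Hoxd9, which acts with the other group 9 genes in the lower back and hind limb, has its promoter inside the called region (chr2:74696400-74699399). H3K9me2 had 15.4, 20.1 and 22.7 CPM in the area at risk against 24.5, 30.1 and 36.2 CPM in its input, and 11.4, 20.9 and 26.7 CPM in the remote myocardium against 27.3, 30.1 and 40.1 CPM in its input. The groups did not overlap in either biopsy. The folds were -0.62 (SE 0.18, FDR 0.00792) and -0.60 (SE 0.17, FDR 0.00301), lower in all 6 mice in both, and without mouse 27 the remote fold was -0.39 with an FDR of 0.0906.

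Hoxd13, the digit and genital counterpart of Hoxa13, was measured in a region across its start (chr2:74666600-74668599) whose promoter is among those printed above. H3K9me2 of the area at risk had 4.89, 12.0 and 16.8 CPM against 18.1, 21.4 and 21.9 CPM in its input, without overlap, and the fold was -0.69 (SE 0.23, FDR 0.0203). Remote H3K9me2 had 4.51, 14.4 and 21.6 CPM against 18.9, 21.1 and 24.8 CPM in remote input, with overlap, and the fold was -0.55 (FDR 0.0274). Depth was low, at 2 to 21 reads per H3K9me2 library. The area at risk call was lost without mouse 17, 22, 23 or 30, with an FDR of 0.0518 to 0.0606, and the remote call without mouse 19, 23 or 27, with an FDR of 0.0666 to 0.237. DESeq2 called neither (FDR 0.0535 and 0.0778).

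Hoxd8 (chr2:74703400-74705999), a gene of the middle of the cluster, had 8.89, 15.8 and 32.2 CPM in remote H3K9me2 against 19.8, 28.1 and 31.3 CPM in remote input. The overlap was large because mouse 22 had the highest value of all 12 libraries in H3K9me2, and the fold was -0.72 (SE 0.20, FDR 0.00161). Its fold in the area at risk was -0.37 (FDR 0.163). Hoxd12 (chr2:74673800-74677599), a digit gene, had 21.1, 30.1 and 46.0 CPM in remote H3K9me2 against 38.6, 43.7 and 48.4 CPM in remote input, with overlap. Its remote fold was -0.43 (FDR 0.0107), and -0.36 with an FDR of 0.0560 without mouse 23. In the area at risk its fold was -0.11 (FDR 0.642).

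The calls of the 2 biopsies shared 7 regions, which is 77.8% of the calls in the area at risk and 50% of those in the remote myocardium. The shared regions were those of Hoxa13, Hoxb9, Hoxb7, Hoxb6, Hoxc8, Hoxd13 and Hoxd9. Those of Hoxb5 and Hoxc9 were called in the area at risk but not in the remote myocardium, and 7 were called in the remote myocardium but not in the area at risk. By gene window, 10 genes had a lower region in both biopsies and 20 in at least 1. Groups that did not overlap, with every H3K9me2 library below every input library, were found in 5 of 50 member regions in each biopsy (10%), where 5.72% of all tested regions had them in the area at risk and 8.53% in remote myocardium. With every H3K9me2 library above every input library there were 0 member regions, where 2.22% of all tested regions were so in the area at risk and 6.68% in remote myocardium. Among the 5 in the area at risk was the uncalled region joining Hoxd11 and Hoxd10 (fold -0.51, FDR 0.0817). Across the 50 regions the log2 folds of the 2 biopsies had Pearson r = 0.62 and Spearman rho = 0.62, against r = 0.845 over all regions tested in both, as a description across regions that share animals. 38 of the 50 member regions had the same sign in both biopsies (76%), against 83.3% of all regions.

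Between the biopsies themselves no tested member region passed the test for a difference in H3K9me2. In edgeR 26 member regions were not tested here. Among them were regions called against input: those of Hoxa13 and Hoxd13, the region inside Hoxa9 and the Hoxa9 to Hoxa10 interval. Of 39 member regions that could be tested, 0 passed at an FDR of 0.05 with edgeR and 0 with DESeq2, as was the case for 0 of all 31526 tested regions (0%). At an unadjusted p under 0.05 there were 2 member regions (5.13%), against 4.03% of all tested regions. The median log2 fold, area at risk over remote myocardium, was -0.01, and single regions ran from -0.58 to 0.58 with a median SE of 0.23. Folds of 0.58 and -0.58 did not pass, so the result does not show that the biopsies were alike.

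The member region of each cluster with the smallest p had overlapping groups. The interval between Hoxa7 and Hoxa9 was higher in the area at risk of all 6 mice, at 16.8, 27.1 and 30.2 CPM in H3K9me2 of the area at risk against 11.5, 17.9 and 22.6 CPM in remote H3K9me2, with a fold of 0.58 (95% interval 0.14 to 1.01). The Hoxb5 region was below its remote value in 5 of 6 mice, with a fold of -0.58 (95% interval -1.09 to -0.08). Hoxc6 (chr15:103004600-103006399), a gene of the thoracic level, had 7.54, 14.2 and 18.2 CPM in H3K9me2 of the area at risk against 15, 18.7 and 22.9 CPM in remote H3K9me2, below in all 6 mice, with a fold of -0.45 (95% interval -0.95 to 0.05). Hoxd3 (chr2:74740200-74741999), a gene of the upper neck, had a fold of -0.44 (95% interval -0.92 to 0.05). In edgeR each of the 4 had an adjusted p of 0.999.

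Corrected for input, the picture was the same. The difference between the 2 folds over input was tested in 51 member regions and passed in 0. Of all 42445 tested regions 0 passed (0%). At an unadjusted p under 0.05 edgeR put 3 member regions (5.88%), against 4.07% of all regions. DESeq2 was not run on this difference. The fold over input between Hoxa7 and Hoxa9 was 0.63 higher in the area at risk (95% interval 0.13 to 1.12), that of Hoxc6 differed by -0.69 (-1.31 to -0.07), and that of the region joining Hoxd11 and Hoxd10 (chr2:74686600-74688399) by -0.66 (-1.25 to -0.06). In edgeR all 3 had an adjusted p of 1.00. A region called in the remote myocardium and not in the area at risk is therefore not shown to differ between them.

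Input chromatin served as the background of the biopsy comparison. With edgeR 0 of 51 member regions differed between input of the area at risk and remote input, as with DESeq2. Of all 42603 tested regions 0 did (0%). At an unadjusted p under 0.05 edgeR put 2 member regions (3.92%), against 2.72% of all. The Hoxc10 input (chr15:102963200-102967799) had a fold of -0.27 (95% interval -0.48 to -0.06), the Hoxd11 and Hoxd10 input 0.35, the input between Hoxa9 and Hoxa10 -0.30 and a Hoxb3 input (chr11:96339000-96346599) -0.13. For the Hoxd11 and Hoxd10 region the H3K9me2 fold between biopsies was -0.30 (95% interval -0.81 to 0.20), so input and mark both enter its corrected value.

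Summed by cluster, H3K9me2 of the area at risk over remote H3K9me2 averaged 0.08 ± 0.19 in cluster A, -0.11 ± 0.22 in cluster B, -0.08 ± 0.19 in cluster C and -0.03 ± 0.24 in cluster D on the log2 scale (SD, n = 6), with mice on both sides of 0 in each. The matching input values were -0.08 ± 0.05, -0.04 ± 0.12, -0.02 ± 0.17 and -0.04 ± 0.13. Input of cluster A was below 0 in all 6 mice, at -0.13 to -0.01, and that of the other clusters lay on both sides of 0.

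Genes that work with or control the Hox genes are described by counts, since the lists were chosen and carry no test of their own. Over all tested regions, 12.3% were lower and 11.3% higher in the area at risk, and 20% and 20.5% in the remote myocardium. Among cofactors that bind DNA beside Hox proteins, tested regions went both ways: 3 of 25 were lower and 5 higher in the area at risk (12% and 20%), and 5 lower and 7 higher in the remote myocardium (20% and 28%). Pbx2 and Meis1 had lower regions, with remote folds of -0.95 (FDR 8.98e-11) and -1.44 (FDR 6.51e-06), and Pknox2 and Meis2 higher ones, with remote folds of 0.80 (FDR 3.47e-06) and 0.79 (FDR 7.06e-06). The same 4 regions in the area at risk had folds of -0.79, -1.23, 0.50 and 0.60, all called. In the area at risk the higher regions lay in only 2 of the 9 tested cofactor genes, Pknox2 and Meis2. The shares of lower regions were close to those of all tested regions. The Hox genes themselves had no higher region.

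Genes for the Polycomb and trithorax proteins, which maintain Hox silence and activity, had mostly lower regions among those called. For Polycomb subunits, 14 of 44 regions were lower in the area at risk (31.8%) and 26 of 45 in the remote myocardium (57.8%). For trithorax and MLL proteins the counts were 10 of 24 (41.7%) and 15 of 23 (65.2%). Of all tested regions 12.3% and 20% were lower, and of those holding a promoter window 33.9% and 45.7%. Kdm6b, which removes the Polycomb mark, had folds of -1.85 (FDR 1.52e-11) and -1.68 (FDR 1.27e-19), larger in size than those of any Hox region. Ring1, whose region also spans Rxrb, had folds of -0.96 and -1.14, and Men1 -0.85 and -1.83, all called. A Cbx7 region was the single higher one, called in the remote myocardium with a fold of 0.35 (FDR 0.0329).

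Upstream regulators also had lower regions. Among retinoic acid and Cdx genes 14 of 51 regions were lower in the area at risk (27.5%) and 25 of 50 in the remote myocardium (50%). These came from 6 of the 14 tested genes in each biopsy. Rxra and Rara held 20 and 13 of the 65 listed regions of this set. Of all tested regions 12.3% and 20% were lower, and of those holding a promoter window 33.9% and 45.7%. Rara, a retinoic acid receptor, led the list with folds of -1.72 (FDR 1.96e-09) and -1.63 (FDR 8.18e-16). The area at risk had 0 higher regions on this list, and the remote myocardium had 3 of 50 (6%), among them Aldh1a2, which makes retinoic acid, with a remote fold of 0.71 (FDR 0.00459), and Cdx1, an activator of Hox genes, with 0.40 (FDR 0.0321). In the area at risk these 2 had folds of 0.47 and 0.35 without a call, and the difference between biopsies passed for 0 regions of the whole series.

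Neighbours and relatives of the Hox genes had both kinds of call. Of the regions of genes flanking the clusters, 2 of 22 were lower in the area at risk (9.09%). In the remote myocardium 4 were lower and 1 higher (18.2% and 4.55%). Over all tested regions 12.3% and 20% were lower in the 2 biopsies, and 11.3% and 20.5% higher. The flanking genes were Snx11 with folds of -0.65 and -0.76 and Smug1 with -0.63 and -0.49, all called. Snx10 had an uncalled 0.31 and a called 0.84. Of the regions of homeobox genes outside the clusters, 6 of 64 were lower and 3 higher in the area at risk (9.38% and 4.69%), and 16 lower and 4 higher in the remote myocardium (25% and 6.25%). Dlx3 and Gbx1 were lower in the remote myocardium (-0.99 and -0.65), and Pax2 and Pax7 higher (0.68 and 0.55). Median folds of the homeobox genes outside the clusters were -0.17 and -0.20, close to the -0.18 and -0.19 of the Hox regions.

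For comparison, genes that define heart cells were read in the same way. H3K9me2 at a gene is not its expression, so these values do not check which cells were present. Of cardiomyocyte marker regions, 5 of 13 were lower in the area at risk (38.5%) and 8 of 13 in the remote myocardium (61.5%). In each biopsy these came from 2 of the 5 tested genes, and 3 genes had no call. The 2 were Atp2a2, the calcium pump of heart muscle, with folds of -1.65 and -1.74, and Tnni3, cardiac troponin I, with -0.52 and -0.69. Of all tested regions 12.3% and 20% were lower, and of those holding a promoter window 33.9% and 45.7%. Of regions of fibroblast, endothelial and blood markers, 5 of 23 (21.7%) and 8 of 23 (34.8%) were lower, among them Pdgfra with -0.98 and -0.90 and Cd68 with -0.69 and -0.76. A Csf1r region was higher in the remote myocardium (0.58) and uncalled in the area at risk (0.27). By gene, 8 of this list were tested in each biopsy. In the area at risk 3 had a lower region and 1 a higher one, and in the remote myocardium 4 and 1 did. Among cardiac transcription factors, 3 of 27 regions were lower in the area at risk (11.1%) and 4 in remote myocardium (14.8%), where 3 were higher (11.1%), among them Irx5 with -1.17 and -0.97 and Gata6 with -0.47 and -0.57, while Tbx5 had an uncalled 0.18 and a called 0.70.

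**Figure D4:**
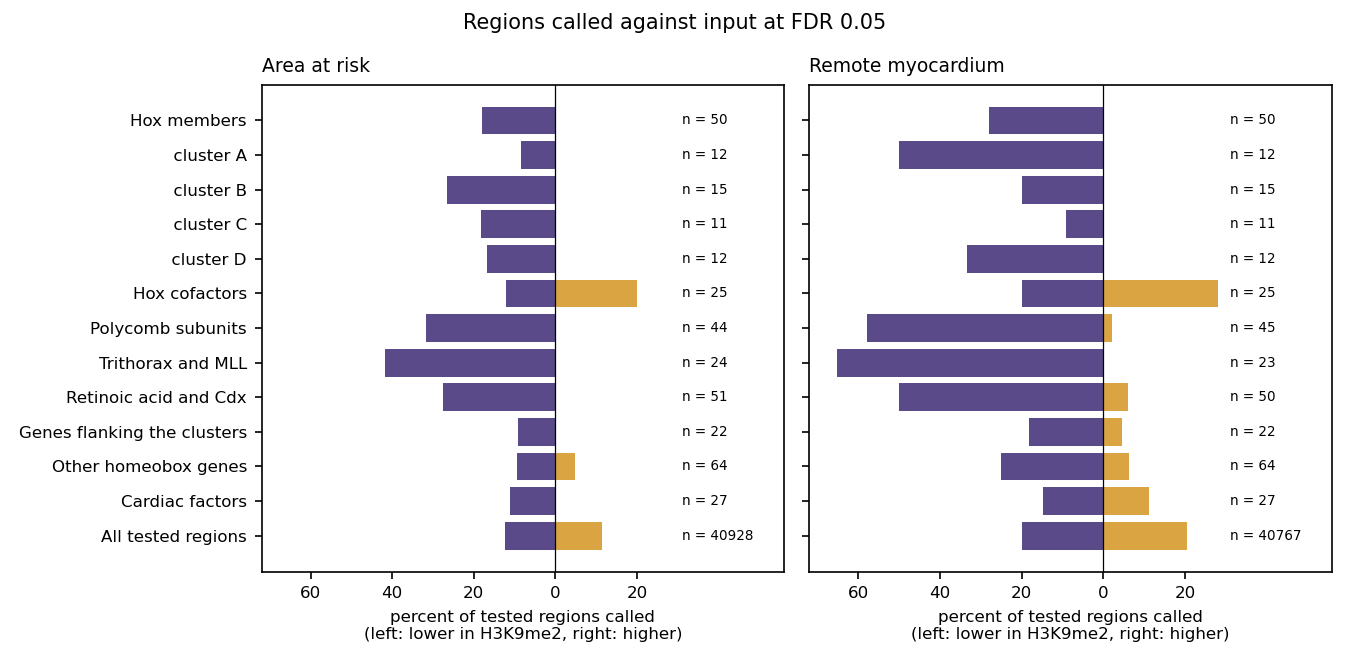
Percent of tested regions called lower (bars to the left) or higher (bars to the right) in H3K9me2 than in input at an FDR of 0.05, in the area at risk (left panel) and the remote myocardium (right panel), with the number of tested regions at the right. The Hox members and each of their 4 clusters have no bar to the right, whereas all tested regions reach 11.3% and 20.5%.

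In the authors' deposited table for the area at risk, 8 member regions had an FDR under 0.05, and in the authors' deposited table for the remote myocardium 12 did. All of these were called here as well, and Hoxb7 in the area at risk and Hoxa4 and Hoxa11 in the remote myocardium were called here but not there. The authors' deposited tables for H3K9me2 and for input between the biopsies had 0 member regions under that threshold.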

How the data were processed

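H3K9me2 and input libraries came from 2 biopsies of each of 6 mice, 24 libraries in all, with the mouse as the replicate. Bowtie2 2.2.2, SICER 1.1 and edgeR are named in the submitters' processing notes, with build mm10. How the regions were chosen is not given in the sources used here. The deposited tables hold read counts per region and library, and, as deposited by the authors, log2 fold changes with p-values and FDR from their own comparisons, whose sign is input over H3K9me2 or remote over area at risk. Member regions wholly covered by other listed regions held 0 reads, and 12 of the 18 partly overlapped ones held enough to be tested.

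The counts were tested with edgeR 4.0.16 (R 4.3.3): trimmed mean of M values scaling, filterByExpr, the quasi-likelihood test and Benjamini-Hochberg adjustment over all tested regions of a table, after a test on simulated data. DESeq2 1.42.0, no filter, an FDR of 0.01, windows of 0 and 5 kb, the mouse as a block and leaving out each mouse were alternatives. CPM used tested-region totals. Intervals, SE and FDR of a region came from the quasi-likelihood fit, which draws part of its variance estimate from the other tested regions. They therefore do not rest only on the spread between mice at that region, and they can be narrower than that spread. Low counts limit each value. Numbers pair libraries because they name the same animal. Deviations of same-mouse libraries from their group means correlated at -0.17 to 0.06 between the H3K9me2 groups and at -0.01 to 0.17 between the 2 kinds of library in the area at risk.

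Members and gene lists were chosen with earlier results of these data known. Named were all member regions called against input, the region of smallest p per cluster in the other contrasts, and at most 2 genes a direction of each other list. A gene that this rule names is not reported here. Gene ends, promoters and microRNAs came from RefSeq GRCm38.p6; GC content of regions was not computed.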

Additional observations from a re-analysis of the deposited data

Results flagged for a closer look

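6 of 102 groups of 6 values held a mouse whose gap to the nearest of the others was large for the range of its group, and chance gives such a gap in about 1 of 20 groups. The log2 ratio of H3K9me2 to input over all 4 clusters in the remote myocardium was -0.33 in mouse 17, with the nearest mouse at -0.23. Over the 3′ part of cluster B in the remote myocardium it was 0.28 in mouse 19, with the nearest at -0.12. Over the 5′ part of cluster C in the area at risk it was 0.61 in mouse 17, with the nearest at 0.03. In H3K9me2 of the area at risk, the interval between Hoxa7 and Hoxa9 had 16.8 CPM in mouse 19, with the nearest at 26.1 CPM. In remote input, the interval between Hoxa9 and Hoxa10 had 10.8 CPM in mouse 27, with the nearest at 21.9 CPM. In remote H3K9me2, the Hoxd8 region had 32.2 CPM in mouse 22, with the nearest at 17.4 CPM. Causes of these gaps were not tested.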

How the results depend on the processing

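No result changed direction under the alternatives run. With the mouse as a replicate block the member regions lower than input numbered 9 in the area at risk and 14 in remote myocardium, the same counts as without it, and the block changed no member call. In the area at risk the 9 lower member regions became 5 with DESeq2 and 2 at an FDR of 0.01, and over all regions an FDR of 0.01 left 2914 lower and 2142 higher. Leaving out 1 mouse in turn gave 6 to 8 lower member regions in the area at risk and 10 to 14 in the remote myocardium. It gave 0 to 1 higher member regions in the remote myocardium, 2916 to 4751 higher regions over the whole list in the area at risk, with 2916 without mouse 19, and 0 to 1 higher regions over the whole list between H3K9me2 of the biopsies, with 1 without mouse 19. The cause of these changes was not tested. The calls at Hoxb5, Hoxb6, Hoxb9 and Hoxd9 in the area at risk, and those at Hoxa13, both Hoxa9 regions, the Hoxa9 to Hoxa10 interval, Hoxb9, Hoxc8 and Hoxd8 in the remote myocardium, held under each of 11 alternatives at an FDR of 0.05. With DESeq2 the calls at Hoxb7, Hoxc8, Hoxc9 and Hoxd13 in the area at risk and those at Hoxa4, Hoxa11 and Hoxd13 in remote tissue were lost, leaving 5 and 11. In depth, single H3K9me2 libraries held as few as 1 read in a called region.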
